A study of Homo sapiens with 6 samples.

Results

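The nuclear genes of respiratory complexes II to V and of their assembly were examined in H1299 cells, an established human lung cancer line, by RNA-seq. The genes were chosen by symbol, as every symbol in the count files that starts with COX and a digit, with UQCR or with ATP5, together with SDHA to SDHD, CYC1, BCS1L, TTC19, SCO1, SCO2, SURF1, TACO1, ATPAF1 and ATPAF2, which gave 69 of the 19934 gene symbols counted. On 2 occasions within 4 days, each culture received either a control siRNA (si-Ctr) or siRNA aimed at ZBTB11 (si-ZBTB11) or at SET (si-SET), and each of these groups has 2 biological replicates among the 6 libraries. The study used more than 1 oligo against ZBTB11, and the labels do not say which of them each library received.

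The respiratory chain of the inner mitochondrial membrane passes electrons from succinate through complex II, and from other fuels through complex I, to ubiquinone, complex III, cytochrome c and complex IV, where oxygen is reduced to water, and complex V, the ATP synthase, uses the proton gradient that results. Apart from complex II, whose subunits are all nuclear, these complexes join subunits made from mitochondrial DNA with a larger number made from nuclear genes, and each needs dedicated factors that insert heme, copper or iron-sulfur clusters or hold a subunit until its partners arrive. ZBTB11 is a zinc finger protein of the nucleus and SET a histone-binding protein studied here as its partner.

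The libraries held 16653115 to 17694522 counts. SET stood at 666 and 657 CPM (counts scaled to a fixed library total, with TMM factors) in the si-Ctr libraries and at 58.2 and 60.4 CPM in the si-SET libraries. ZBTB11 stood at 52.8 and 64.2 CPM in si-Ctr and at 31.8 and 32.5 CPM in si-ZBTB11, a log2 fold change of -0.86 ± 0.08 (SE). ZBTB11 mRNA was also lower in the si-SET libraries, at 47.7 and 41.5 CPM (log2 fold change -0.39 ± 0.08, adjusted p = 2.12e-05). The keratins KRT8 and KRT18 and the mesenchymal marker vimentin (VIM) were counted 6083 times or more in every library, and the lung marker NKX2-1 37 to 61 times, whereas KRT19, EPCAM, CDH1, SFTPB, SFTPC and NAPSA had at most 12 counts in a library. Of markers of other cells, the blood and endothelial genes (PTPRC, CD3E, CD14, VWF and CDH5) had at most 12 counts, and the fibroblast genes COL1A1 and PDGFRA 73 to 101 and 26 to 48 counts. KRT8 was counted 7899 and 7579 times in si-Ctr and between 6083 and 6438 times in the knockdown libraries. The genes of the mitochondrial genome took 3.01% to 3.05% of counts in the control and si-SET libraries, and this share was 3.28% and 3.34% upon ZBTB11 knockdown.

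Of the 69 genes, 62 had enough counts to be tested in each comparison, and 7 did not (ATP5MF-PTCD1, ATP5MGL, COX4I2, COX6A2, COX6B2, COX8C and SCO2, none above 11 counts in any library). Per kilobase of the canonical transcript, the tested genes spanned 1.15 CPM per kb (COX20) to 689 CPM per kb (COX6B1) in the control libraries, with a median of 61.4 against 8.77 for all genes tested. By group medians, subunits stood above assembly factors on this scale. Single genes crossed over, with the assembly factor COX14 at 92.1 and the subunit UQCR11 at 19.4 CPM per kb. Roles were set by symbol, so that UQCRHL and COX7A2L count as subunits. The medians were 192 CPM per kb for the widely expressed subunits of complex IV, 128 for those of the ATP synthase, 67.2 for complex II and 63.7 for complex III. The assembly factors had medians of 18.9 CPM per kb for complex III, 11.6 for the ATP synthase and 7.22 for complex IV. Canonical transcripts may not be the ones these cells use, so that levels on this scale are approximate.

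**Figure D1:**
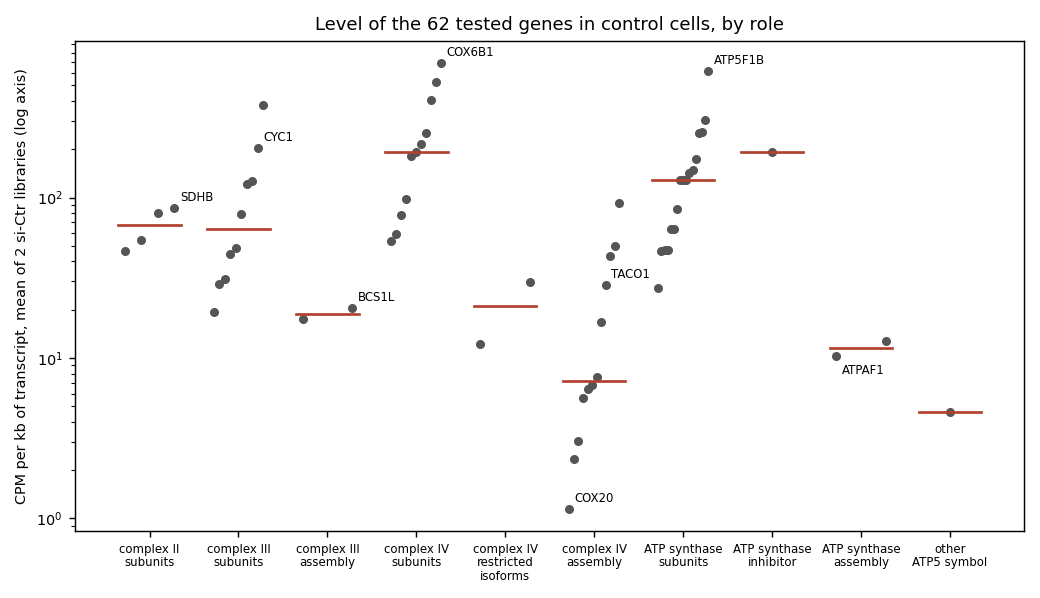
Level of each of the 62 tested genes in control cells, in CPM per kilobase of transcript on a log axis (mean of the 2 si-Ctr libraries), grouped by role, with the median of each group as a line. The assembly factors of complex IV have the lowest median among the groups of more than 2 genes, 7.22, and its subunits the highest, 192.

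Upon ZBTB11 knockdown, the largest changes among these genes were losses of assembly factors. TACO1, the translational activator of the mitochondrially encoded COX1 subunit, fell to 40.8% of its control level, and ATPAF1, the chaperone of the beta subunit during assembly of the F1 part of the ATP synthase, fell to 48.9%. The small complex IV subunit COX7B and the Rieske iron-sulfur protein of complex III, UQCRFS1, fell less. A further 18 genes rose, none by more than 0.39 on the log2 scale (COX17). In all, 18 of 62 genes were higher and 4 were lower at an adjusted p under 0.05 (edgeR quasi-likelihood test, adjusted over 13534 genes), which is 29% and 6.45% of them, beside 9.94% and 10.5% of all genes tested. The median log2 fold change was 0.076 over the 62 genes and 0.002 over all genes tested, and the former was 0.037 without si-ZBTB11 replicate 1 and 0.116 without si-ZBTB11 replicate 2. The count of higher genes was 8 with DESeq2, 8 without si-Ctr replicate 2 and 7 without si-ZBTB11 replicate 1, while the count of lower genes stayed at 3 or 4 in these fits.

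Upon SET knockdown, 8 of the 62 genes rose and 10 fell, 12.9% and 16.1% beside 13.1% and 13.9% of the 13599 genes tested, shares close to those of all genes. Their median log2 fold change was -0.018, beside 0.003 over all genes tested. Neither TACO1 nor ATPAF1 was called. DESeq2 called 5 higher and 3 lower, and the count of lower genes was 4 to 6 when any 1 library was left out. Both knockdowns were compared with the same control libraries, so calls that they have in common are not counted here.

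The knockdowns were therefore also set directly against each other, without the control libraries. Here 13 genes were higher and 5 lower in si-ZBTB11 than in si-SET, 21% and 8.06% of the 62 genes beside 9.61% and 8.58% of the 13549 genes tested, with a median log2 difference of 0.074 beside -0.002. The 4 genes lower upon ZBTB11 knockdown (TACO1, ATPAF1, COX7B and UQCRFS1) were among the 5, with ATP5MC2. The same si-ZBTB11 libraries enter both comparisons, so this overlap is not independent. DESeq2 called 9 and 3, the higher count was 8 without si-ZBTB11 replicate 1, and the lower count was 3 without si-ZBTB11 replicate 2. Small changes often lost their call under an alternative fit (DESeq2, other scalings, filters and designs, or a library left out). Upon ZBTB11 knockdown, 9 of the 22 calls were kept in all of them (TACO1, ATPAF1, COX7B, SDHB, UQCRB, COX7C, COX17, ATP5PB and ATP5MPL). Upon SET knockdown 6 of 18 were (ATP5PF, ATP5MC2, ATP5PB, COX17, COX7B2 and COX7C), and between the knockdowns 11 of 18 (TACO1, ATPAF1, COX7B, SDHB, TTC19, UQCRH, COX14, COX6B1, ATP5F1E, ATP5MPL and ATP5PF).

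**Figure D2:**
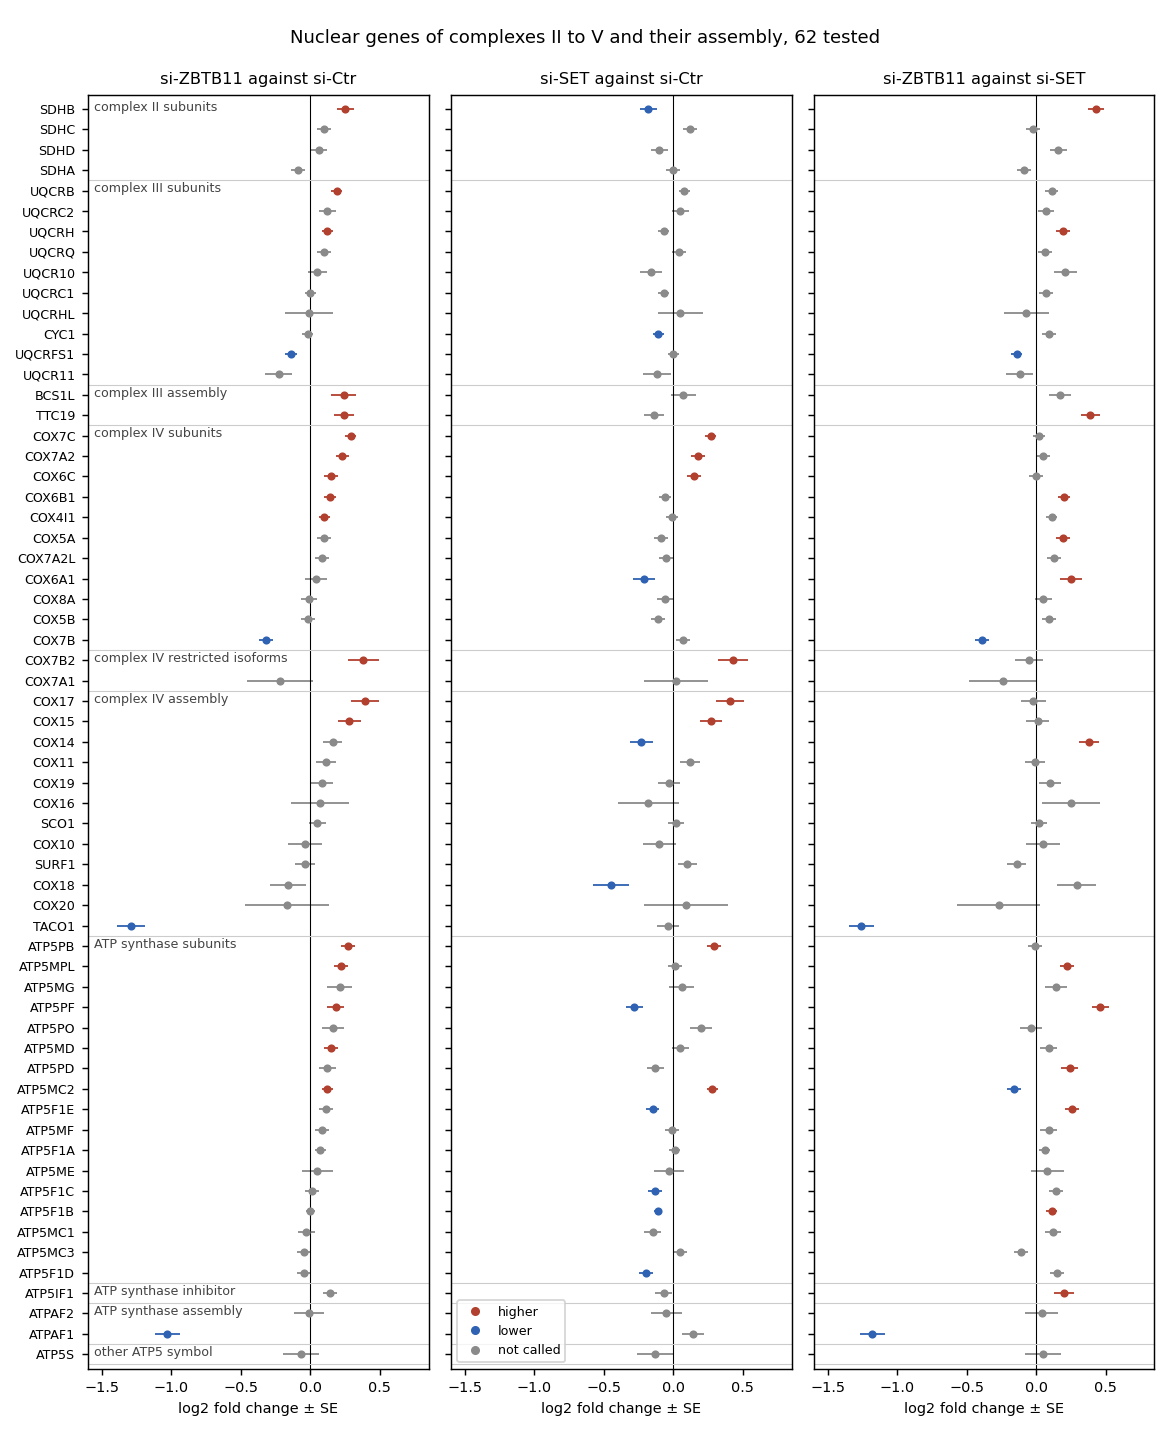
Log2 fold change with its standard error of the 62 tested genes for si-ZBTB11 against si-Ctr, si-SET against si-Ctr and si-ZBTB11 against si-SET (2 libraries per group), grouped by role and coloured by call at an adjusted p under 0.05. TACO1 (-1.29) and ATPAF1 (-1.03) stand apart in the first panel and lie near 0 in the second, at -0.04 and 0.14.

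TACO1 (chromosome 17, 63600882 to 63608365, plus strand, hg38) was measured at 39.5 and 42.9 CPM in si-Ctr, 15.9 and 17.8 CPM in si-ZBTB11 and 39.3 and 40.8 CPM in si-SET. Both si-ZBTB11 libraries lay far below the other 4, and the si-SET values overlapped those of the controls. The log2 fold change upon ZBTB11 knockdown was -1.29 ± 0.10 (adjusted p = 4.98e-22), and against the si-SET libraries it was -1.26 ± 0.09 (adjusted p = 6.34e-12). Of the exonic bases of TACO1, 40.9% are shared with a gene without a symbol on the same strand, and the counts do not separate them. The mRNA whose translation TACO1 activates, MT-CO1, was higher, at 9956 and 10192 CPM in si-ZBTB11 beside 9205 and 8995 CPM in si-Ctr. Its log2 fold change was 0.14 ± 0.02 (adjusted p = 7.01e-07), but 69.7% of its 31-base words occur elsewhere. MT-CO2, MT-CO3, MT-CYB and MT-ATP6 were also higher, by 0.15, 0.27, 0.25 and 0.22, while MT-ATP8 was not called. The counts say nothing of how much COX1 protein was made. In bulk RNA, a lower level in every cell and a loss in part of the cells cannot be told apart.

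ATPAF1 (chromosome 1, 46632737 to 46673867, minus strand) was measured at 44.9 and 38.9 CPM in si-Ctr, 19.8 and 21.3 CPM in si-ZBTB11 and 49.1 and 43.4 CPM in si-SET. The si-ZBTB11 values again lay below all others, and the si-SET values overlapped those of the controls. The fall upon ZBTB11 knockdown was -1.03 ± 0.09 on the log2 scale (adjusted p = 2.76e-17), and the difference from si-SET was -1.18 ± 0.09 (adjusted p = 9.44e-12). TACO1 and ATPAF1 were the only genes of the 62 past an absolute log2 fold change of 1 upon ZBTB11 knockdown, and they kept their calls in every alternative fit run, between -1.37 and -1.22 for TACO1 and between -1.13 and -0.92 for ATPAF1. ATPAF2, which chaperones the alpha subunit of F1, stood at 19.5 and 20.2 CPM in si-Ctr, 16.9 and 22.8 CPM in si-ZBTB11 and 20.0 and 18.4 CPM in si-SET, so that all groups overlapped. Its log2 fold change upon ZBTB11 knockdown was -0.01 ± 0.11.

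The stretches before the RefSeq start sites of these genes, which fell most, are given from 150 to 31 bases upstream, on the strand of each gene, from the RefSeq promoter table on GRCh38.p14. Capitals mark the longest run of bases shared by the 300-base windows of the pair (250 bases before to 50 after the start), which was looked for after the values were seen. Neither stretch holds a GENCODE exon, but 1 annotated transcript runs across each.
ATPAF1, chr1:46668588-46668707, minus strand: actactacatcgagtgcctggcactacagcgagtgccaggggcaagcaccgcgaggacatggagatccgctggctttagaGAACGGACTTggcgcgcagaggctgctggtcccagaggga
TACO1, chr17:63600745-63600864, plus strand: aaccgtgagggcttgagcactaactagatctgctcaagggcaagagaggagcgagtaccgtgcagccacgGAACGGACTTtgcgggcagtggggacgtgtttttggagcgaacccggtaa

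The shared run GAACGGACTT has 10 bases. It lies 70 to 61 bases before the RefSeq start of ATPAF1 and 80 to 71 bases before that of TACO1. The canonical GENCODE transcript of ATPAF1 starts at 46668364, downstream of the RefSeq start at 46668557, so its distance from the run is larger. It was found, on either strand, in the windows of 4 of the 27305 symbols with a RefSeq promoter (0.0146%), and its last 9 bases, AACGGACTT, in those of 22 (0.0806%). The only other tested gene with the whole run, RRP15, was not called upon ZBTB11 knockdown (-0.19, adjusted p = 0.187). Apart from TACO1 and ATPAF1, from which the run was taken, 10 tested genes hold the 9 bases, and upon ZBTB11 knockdown 4 of them were lower (PLAU, GSTA4, DPY19L2 and PPAT) and 1 was higher (RBL1), with a median log2 fold change of -0.11, beside 10.5% and 9.94% of all genes tested. Upon SET knockdown 2 of the 10 were lower (PLAU and PPAT), beside 13.9% of all genes tested, and the median was -0.04. No test was run, since the run was picked from genes that had fallen, and a match of letters is not a binding site. The study reports ZBTB11 at the promoters of ATPAF1 and TACO1 by ChIP-seq, followed by ChIP-qPCR. The primers it lists for the ATPAF1 promoter amplify chr1:46668617-46668718, which holds the run. Those for TACO1 amplify chr17:63600638-63600786, which ends before the run.

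The study names CCGGAAG and CAGGAAG in connection with ZBTB11 binding, and CCGGAAG is also the core recognised by transcription factors of the ETS family. Either word, on either strand, occurred in 44% of the 300-base windows of the 50 tested genes with a RefSeq promoter, beside 28.6% of 10948 tested genes, and CCGGAAG alone in 40% beside 18.5%. By call upon ZBTB11 knockdown, either word lay in the windows of 9 of 16 higher genes, 13 of 30 genes without a call and 0 of 4 lower genes. The windows of TACO1, ATPAF1, COX7B and UQCRFS1 thus held neither word. These counts describe letters in a window and say nothing of what binds there.

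The 3′ UTRs were also searched for 7-base matches to the siRNA seeds (guide bases 2 to 8). Neither TACO1 nor ATPAF1 holds a match to the ZBTB11 oligos. Among the 61 tested genes with an annotated 3′ UTR, 8.2% hold a match to the seed of the first ZBTB11 oligo and 9.84% to that of the other, beside 12.6% and 9.92% of all genes tested. By call upon ZBTB11 knockdown, the first seed is matched in 2 higher genes (COX7A2 and TTC19), 1 lower gene (UQCRFS1) and 2 genes without a call, and the other seed in 2 higher genes (ATP5MPL and TTC19), 1 lower gene (UQCRFS1) and 3 genes without a call. The seed of the SET oligo is matched in 11.5% of the 61 genes, beside 17.1% of all genes tested, of which 2 were lower upon SET knockdown (ATP5F1B and ATP5F1E), 1 was higher (COX15) and 4 were not called. The part of such matches in the changes was not tested.

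**Figure D3:**
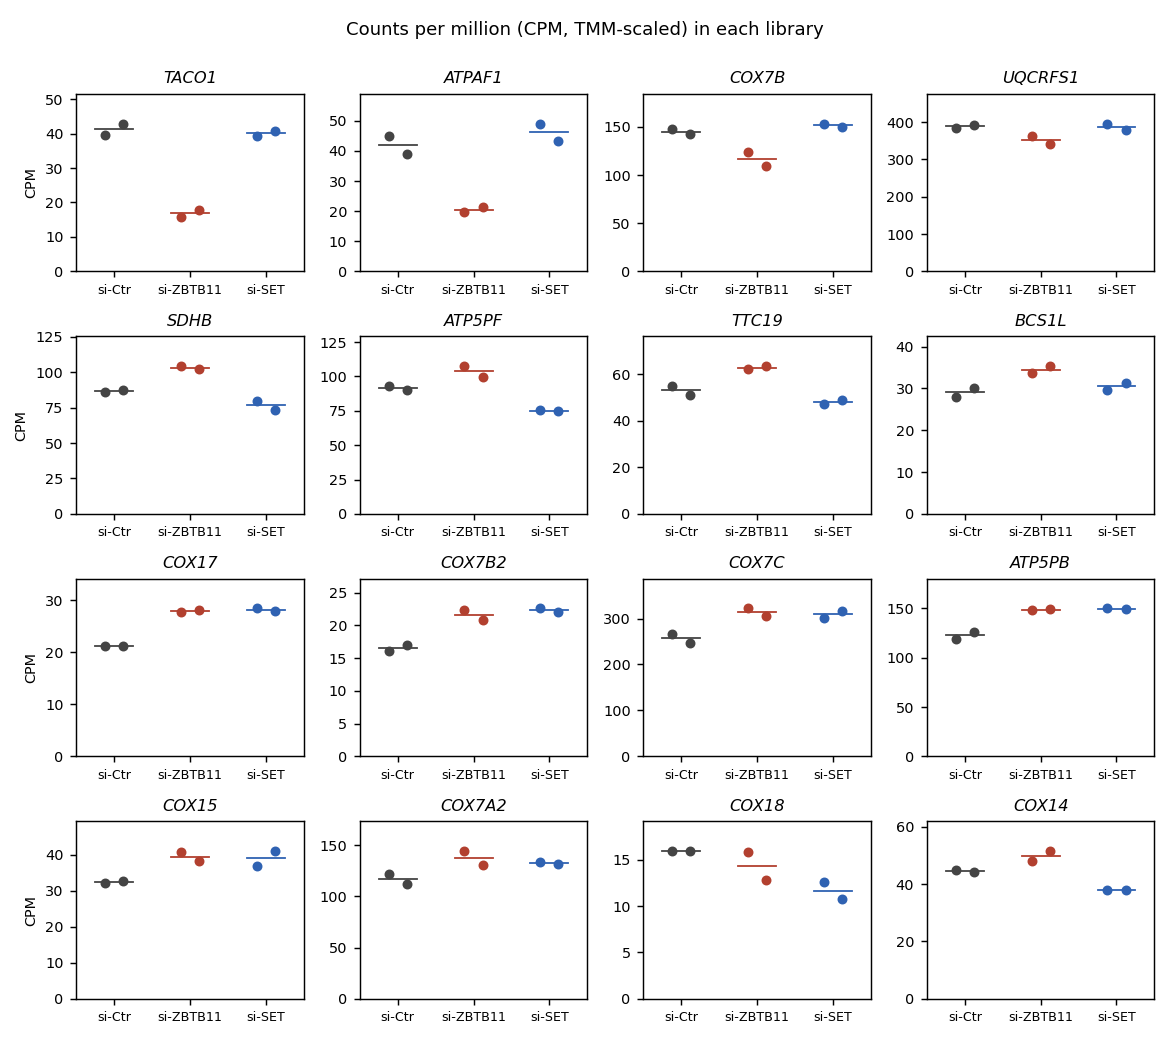
CPM in each library (points) and group means (lines) for 16 genes named in the text, with axes that start at 0. The si-ZBTB11 points of TACO1 and ATPAF1 lie far below those of the other groups, while SDHB and ATP5PF are above the controls in si-ZBTB11 and below them in si-SET.

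In complex II, SDHB, the iron-sulfur subunit, was the only 1 of 4 genes called, and its direction differed between the knockdowns. Beside it, 9.94% of all genes tested were higher upon ZBTB11 knockdown and 13.9% lower upon SET knockdown. SDHB was measured at 86.4 and 87.6 CPM in si-Ctr, 104 and 102 CPM in si-ZBTB11 and 80.0 and 73.2 CPM in si-SET, with no overlap between groups. It rose by 0.25 ± 0.06 on the log2 scale upon ZBTB11 knockdown (adjusted p = 0.000319) and fell upon SET knockdown (-0.18 ± 0.06, adjusted p = 0.0142), and the direct difference was 0.43 ± 0.06 (adjusted p = 1.79e-06). The fall upon SET knockdown lost its call with DESeq2 and without either control library or si-SET replicate 2, whereas the direct difference kept its call in every fit. SDHA, the flavoprotein that oxidises succinate, stood at 123 and 127 CPM in si-Ctr, 118 and 116 CPM in si-ZBTB11 and 125 and 124 CPM in si-SET. SDHC, a membrane anchor, stood at 105 and 104, 114 and 111, and 111 and 117 CPM in these groups. SDHD, the other anchor, stood at 71.1 and 73.5 CPM, at 78.9 and 71.9 CPM and at 68.4 and 66.4 CPM. None of these passed the test in any comparison. SDHC and SDHD have 75.3% and 66.6% of their 31-base words elsewhere in the genome, so their counts are uncertain.

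Among the assembly factors of complex II outside the symbol rule, SDHAF1, which helps to insert iron-sulfur clusters into SDHB, had the same pattern as SDHB. It was measured at 39.6 and 40.9 CPM in si-Ctr, 46.9 and 46.5 CPM in si-ZBTB11 and 34.5 and 34.4 CPM in si-SET. The direct difference between the knockdowns was 0.43 ± 0.08 (adjusted p = 7.76e-05). SDHAF3, which acts on the same subunit, went the opposite way in the direct comparison, at 20.5 and 20.0 CPM in si-ZBTB11 and 27.0 and 25.1 CPM in si-SET (log2 difference -0.37 ± 0.10, adjusted p = 0.00746), and was called against control in neither knockdown. Of the 4 factors, 1 was higher upon ZBTB11 knockdown and 1 lower upon SET knockdown, SDHAF1 in each case. The shares of all genes tested were 9.94% and 13.9%, respectively. The SDHAF1 call upon SET knockdown was lost with DESeq2 and when any 1 library was left out. The SDHAF3 call was lost with DESeq2 and without si-SET replicate 1.

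Of the 10 genes counted by symbol as complex III subunits, UQCRHL among them, 2 were higher and 1 was lower upon ZBTB11 knockdown. Over all genes tested, the shares higher and lower were 9.94% and 10.5%. UQCRFS1 fell from 385 and 391 CPM in si-Ctr to 363 and 343 CPM in si-ZBTB11 (log2 fold change -0.14 ± 0.04, adjusted p = 0.0042), and the si-SET libraries had 396 and 378 CPM, overlapping the controls. This call was lost without si-Ctr replicate 2 or si-ZBTB11 replicate 2, and the direct difference from si-SET (-0.14 ± 0.04, adjusted p = 0.0224) was lost with DESeq2 and without si-SET replicate 1 or si-ZBTB11 replicate 2. UQCRB, a small subunit near the ubiquinone site, rose from 263 and 260 CPM to 309 and 288 CPM (0.19 ± 0.04, adjusted p = 0.000188), and UQCRH, the hinge protein that meets cytochrome c1, from 204 and 199 CPM to 223 and 217 CPM. UQCRH has 49.7% of its 31-base words elsewhere, as in UQCRHL. Its rise lost the call with DESeq2, with library size only and without either control library or si-ZBTB11 replicate 1. CYC1, cytochrome c1 itself, was the only subunit called upon SET knockdown (-0.11 ± 0.04, adjusted p = 0.0334). It stood at 239 and 248 CPM in si-Ctr, 222 and 227 CPM in si-SET and 248 and 232 CPM in si-ZBTB11. The CYC1 call was lost with DESeq2 and without either control library or si-SET replicate 1. The 10 genes spanned -0.23 to 0.19 upon ZBTB11 knockdown and -0.16 to 0.08 upon SET knockdown.

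Both assembly factors of complex III in the list rose upon ZBTB11 knockdown, beside 9.94% of all genes tested. BCS1L, the membrane ATPase that inserts the Rieske protein, was measured at 28 and 30.2 CPM in si-Ctr, 33.6 and 35.3 CPM in si-ZBTB11 and 29.7 and 31.4 CPM in si-SET. Its rise of 0.24 ± 0.09 (adjusted p = 0.0377) was not called with DESeq2, with library size only or when any 1 library was left out. TTC19, which acts on complex III after the Rieske protein is in place, was measured at 54.9 and 51.2 CPM, at 62.3 and 63.5 CPM and at 47.1 and 48.8 CPM in these groups, without overlap. It rose by 0.24 ± 0.07 upon ZBTB11 knockdown (adjusted p = 0.00399), a call lost with DESeq2 and without si-Ctr replicate 2. It stood 0.39 ± 0.07 above the si-SET libraries (adjusted p = 7.25e-05).

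Outside the rule, 2 of 4 further assembly factors of complex III rose upon SET knockdown, beside 13.1% of all genes tested. None of the 4 was called upon ZBTB11 knockdown. UQCC3, which stabilises newly made cytochrome b, was measured at 12 and 13.1 CPM in si-Ctr, 16.3 and 17.9 CPM in si-SET and 14.5 and 14.8 CPM in si-ZBTB11. Its rise was 0.45 ± 0.12 (adjusted p = 0.00314), and was not called with DESeq2 or without si-Ctr replicate 1 or si-SET replicate 2. UQCC1, which acts at the same step, stood at 110 and 106 CPM in si-Ctr, 126 and 117 CPM in si-SET and 95.9 and 102 CPM in si-ZBTB11, and differed by -0.31 ± 0.05 between si-ZBTB11 and si-SET (adjusted p = 0.000103), while its call against control was lost with DESeq2 and without si-Ctr replicate 2 or si-SET replicate 1. MT-CYB, the mRNA of cytochrome b, stood at 1442 and 1459 CPM in si-Ctr, 1718 and 1736 CPM in si-ZBTB11 and 1488 and 1501 CPM in si-SET, a rise of 0.25 ± 0.03 upon ZBTB11 knockdown (adjusted p = 4.31e-11).

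Of the 11 genes counted by symbol as widely expressed subunits of complex IV, COX7A2L among them, 5 were higher and 1 lower upon ZBTB11 knockdown. Upon SET knockdown, 3 were higher and 1 lower. Among all genes tested, 9.94% were higher and 10.5% lower in the former, and 13.1% and 13.9% in the latter. COX7C, a small membrane subunit, rose in both, from 266 and 248 CPM in si-Ctr to 322 and 306 CPM in si-ZBTB11 (0.29 ± 0.04, adjusted p = 1.73e-08) and to 301 and 317 CPM in si-SET (0.27 ± 0.04, adjusted p = 9.47e-08). COX7A2, another small subunit, was measured at 122 and 112 CPM, at 144 and 131 CPM and at 133 and 132 CPM in si-Ctr, si-ZBTB11 and si-SET. The rise of COX7A2 upon ZBTB11 knockdown (0.23 ± 0.05) was not called without si-Ctr replicate 2 or si-ZBTB11 replicate 1. COX6C rose by 0.15 ± 0.05 in each knockdown, and neither call was kept with DESeq2 or without si-Ctr replicate 2. The calls were also lost without si-ZBTB11 replicate 1 and without si-SET replicate 2, respectively. COX6B1 rose by 0.14 upon ZBTB11 knockdown and stood 0.20 ± 0.04 above the si-SET libraries (adjusted p = 0.00137), while COX4I1 rose by 0.10 and its direct difference of 0.11 did not pass (adjusted p = 0.0614). Against control, the call of COX4I1 was lost with DESeq2, with library size only, in the joint fit of 6 libraries and when any 1 library was left out, and that of COX6B1 without si-Ctr replicate 2 or si-ZBTB11 replicate 1. COX5A was called only between the knockdowns, at 128 and 118 CPM in si-ZBTB11 and 106 and 110 CPM in si-SET (0.19 ± 0.05, adjusted p = 0.0137). This call was lost with DESeq2 and without si-SET replicate 1 or si-ZBTB11 replicate 1. COX6A1 was lower in si-SET, at 35 and 37.1 CPM beside 41.5 and 41.9 CPM in si-Ctr and 43.2 and 42.6 CPM in si-ZBTB11, but 68.8% of its 31-base words occur elsewhere and its call against control was lost with DESeq2 and when any 1 library was left out.

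COX7B was the exception among the complex IV subunits. It fell from 147 and 142 CPM in si-Ctr to 124 and 109 CPM in si-ZBTB11, with 153 and 150 CPM in si-SET. The si-ZBTB11 values lay below all others, a log2 fold change of -0.32 ± 0.05 against control (adjusted p = 4.8e-07) and -0.39 ± 0.05 against si-SET (adjusted p = 2.94e-06), and both calls held in every fit. Its paralog COX7B2, known mainly from testis, went the opposite way, from 16.1 and 17 CPM in si-Ctr to 22.3 and 20.9 CPM in si-ZBTB11 and 22.6 and 22.0 CPM in si-SET. The rise of COX7B2 was 0.38 ± 0.11 upon ZBTB11 knockdown (adjusted p = 0.0071) and 0.43 ± 0.11 upon SET knockdown (adjusted p = 0.00111). The first call was lost with DESeq2 and without si-Ctr replicate 1 or si-ZBTB11 replicate 1. Per kilobase COX7B had 59.3 CPM and COX7B2 had 29.7 CPM in the control libraries. Of the other tissue-restricted isoforms, COX7A1 had 50 to 78 counts in a library and was not called, and COX4I2 had 0 counts in every library, where the 3 counts that a count of 0 allows would be 0.17 to 0.18 CPM.

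Among the 13 assembly factors of complex IV, 12 were tested. TACO1 fell and COX17 and COX15 rose upon ZBTB11 knockdown, beside 10.5% lower and 9.94% higher of all genes tested. COX17, the copper chaperone of the intermembrane space, was measured at 21.2 and 21.3 CPM in si-Ctr, 27.7 and 28.1 CPM in si-ZBTB11 and 28.4 and 27.9 CPM in si-SET. Replicates lay close together and both knockdowns stood above the controls, by 0.39 ± 0.10 (adjusted p = 0.00162) and 0.41 ± 0.10 (adjusted p = 0.000695), and both calls held in every fit. Since 52.0% of its 31-base words occur elsewhere, the counts of COX17 may hold reads of its copies. COX15, which makes heme A, stood at 32.2 and 32.6 CPM, at 40.7 and 38.2 CPM and at 36.9 and 41.0 CPM in si-Ctr, si-ZBTB11 and si-SET. Its rises of 0.28 ± 0.08 and 0.27 ± 0.08 were not called with DESeq2 or without si-Ctr replicate 1. They also lost their calls without si-ZBTB11 replicate 1 and without si-SET replicate 2, respectively. SCO1, a copper factor that acts after COX17, was measured at 64.7 and 65.2 CPM in si-Ctr, 64.9 and 69.7 CPM in si-ZBTB11 and 64.4 and 67.4 CPM in si-SET, and passed no test. SCO2, its paralog, had 4 and 3 counts in si-Ctr, 2 and 2 in si-ZBTB11 and 4 and 1 in si-SET, and 88.2% of its exonic bases overlap NCAPH2 or TYMP, so its counts are uncertain.

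COX18 and COX14, factors that act on newly made subunits, were lower upon SET knockdown. Of the 12 factors tested, 2 were thus lower and 2 higher, beside 13.9% and 13.1% of all genes tested. COX18, which inserts the tail of the COX2 subunit into the membrane, was measured at 15.9 and 15.9 CPM in si-Ctr, 12.6 and 10.7 CPM in si-SET and 15.8 and 12.8 CPM in si-ZBTB11. The fall in si-SET was -0.45 ± 0.13 (adjusted p = 0.00444), the largest of the 10, and was not called with DESeq2 or without si-SET replicate 2. COX14, which binds newly made COX1, fell from 45.0 and 44.1 CPM in si-Ctr to 38.1 and 38.0 CPM in si-SET, and stood at 48.0 and 51.6 CPM in si-ZBTB11. The fall against control (-0.23 ± 0.08, adjusted p = 0.0217) was lost with DESeq2 and when any 1 library was left out, while the direct difference of 0.38 ± 0.07 (adjusted p = 0.000303) held in every fit. SURF1, an early factor in the assembly around COX1, was measured at 46.4 and 48.4 CPM, at 44.8 and 47.7 CPM and at 47.7 and 53.8 CPM in si-Ctr, si-ZBTB11 and si-SET, and passed no test. The other 5 tested factors (COX10, COX11, COX16, COX19 and COX20) were called in no comparison.

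Of 17 further genes that act on complex IV or hand electrons to it, 3 were higher and none was lower upon ZBTB11 knockdown (edgeR, and also 0 lower at an unadjusted p under 0.05 and 0 by DESeq2). Upon SET knockdown, 2 were higher and 2 lower. The shares of all genes tested were 9.94% higher and 10.5% lower upon ZBTB11 knockdown, and 13.1% and 13.9% upon SET knockdown. CYCS, cytochrome c, rose from 116 and 112 CPM in si-Ctr to 147 and 138 CPM in si-ZBTB11 (0.32 ± 0.05, adjusted p = 3.27e-07) and to 153 and 142 CPM in si-SET (0.37 ± 0.05, adjusted p = 1.5e-09). NDUFA4, a subunit of complex IV despite its name, was measured at 124 and 115 CPM, at 147 and 141 CPM and at 131 and 143 CPM in si-Ctr, si-ZBTB11 and si-SET, with rises of 0.27 ± 0.05 and 0.19 ± 0.05, the second not called with DESeq2 or without si-Ctr replicate 2 or si-SET replicate 2. COA6, a further copper factor, stood at 25.1 and 22.2 CPM in si-ZBTB11, 16.6 and 18.1 CPM in si-SET and 20.6 and 19.1 CPM in si-Ctr, and only the direct difference passed (0.44 ± 0.11, adjusted p = 0.00403), a call lost without si-ZBTB11 replicate 1. Of the 6 mRNAs of these complexes made in mitochondria, 5 were higher upon ZBTB11 knockdown and 1 upon SET knockdown. MT-CO3, the gene called in both, stood at 3437 and 3384 CPM in si-Ctr, 3999 and 4232 CPM in si-ZBTB11 and 3632 and 3581 CPM in si-SET. Nuclear copies of mitochondrial sequence may share reads with these genes.

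Of the 17 ATP synthase subunit genes, 5 were higher and none was lower upon ZBTB11 knockdown (edgeR, and also 0 lower at an unadjusted p under 0.05 and 0 by DESeq2). Upon SET knockdown, 2 were higher and 5 lower. All genes tested had shares of 9.94% higher and 10.5% lower upon ZBTB11 knockdown, and 13.1% and 13.9% upon SET knockdown. ATP5PB, subunit b of the peripheral stalk, rose in both, from 119 and 126 CPM in si-Ctr to 148 and 149 CPM in si-ZBTB11 (0.27 ± 0.05, adjusted p = 6.03e-06) and 150 and 149 CPM in si-SET (0.29 ± 0.05, adjusted p = 1.24e-06). ATP5MC2, 1 of the genes that encode subunit c of the membrane ring, was measured at 191 and 192 CPM in si-Ctr, 215 and 203 CPM in si-ZBTB11 and 219 and 245 CPM in si-SET. Its rise was 0.28 ± 0.04 upon SET knockdown (adjusted p = 2.36e-07) and 0.12 ± 0.04 upon ZBTB11 knockdown, the latter not called with DESeq2, with library size only, in the joint fit or without either control library or si-ZBTB11 replicate 1. The difference between the knockdowns passed at -0.16 ± 0.05 (adjusted p = 0.0249), though not with DESeq2 or without si-SET replicate 2 or si-ZBTB11 replicate 2. The other genes of subunit c, ATP5MC1 and ATP5MC3, were not called. ATP5MPL, a small proteolipid of the membrane part, rose upon ZBTB11 knockdown, with 160 and 155 CPM in si-Ctr, 185 and 184 CPM in si-ZBTB11 and 160 and 156 CPM in si-SET, and the difference from si-SET was 0.22 ± 0.05 (adjusted p = 0.00104). ATP5MD also rose upon ZBTB11 knockdown (0.15 ± 0.05, adjusted p = 0.0414). Its call was lost with DESeq2, with library size only, in the joint fit and without si-Ctr replicate 2 or si-ZBTB11 replicate 1. ATP5MPL and ATP5MD are older names of ATP5MJ and ATP5MK.

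ATP5PF, subunit F6 of the peripheral stalk, had the largest direct difference among genes higher in si-ZBTB11. It was measured at 93.1 and 89.9 CPM in si-Ctr, 108 and 99.9 CPM in si-ZBTB11 and 75.4 and 75 CPM in si-SET, and no groups overlapped. The direct difference was 0.46 ± 0.06 (adjusted p = 4.26e-07) and the fall upon SET knockdown -0.28 ± 0.06 (adjusted p = 6.61e-05). ATP5PF rose by 0.18 ± 0.06 upon ZBTB11 knockdown (adjusted p = 0.0118). That call was lost with DESeq2 and without si-Ctr replicate 2 or si-ZBTB11 replicate 1. Of its exonic bases, 37.3% overlap GABPA or JAM2 on the opposite strand, which could add reads where the counting ignored strand. Of the subunits of the F1 part, alpha (ATP5F1A) was not called upon SET knockdown, at 493 and 487 CPM in si-Ctr and 497 and 486 CPM in si-SET, while the other 4 were lower. ATP5F1D changed by -0.20 ± 0.05 upon SET knockdown (adjusted p = 0.00126), a call lost without si-Ctr replicate 2 or si-SET replicate 2. It was measured at 125 and 131 CPM in si-Ctr, 117 and 105 CPM in si-SET and 122 and 125 CPM in si-ZBTB11. ATP5F1E stood at 173 and 166 CPM, at 144 and 162 CPM and at 190 and 178 CPM in these groups, with a direct difference of 0.26 ± 0.05 (adjusted p = 0.000411), and its fall upon SET knockdown (-0.15 ± 0.05, adjusted p = 0.0101) was lost with DESeq2 and without si-Ctr replicate 1 or si-SET replicate 1. The catalytic beta subunit ATP5F1B and the gamma subunit ATP5F1C fell by 0.11 and 0.13 on the log2 scale upon SET knockdown. Both calls were lost without si-Ctr replicate 2 or si-SET replicate 2. The call of ATP5F1C was also lost with DESeq2 and without si-Ctr replicate 1.

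ATP5PD, subunit d of the peripheral stalk, and ATP5IF1, the inhibitor of ATP hydrolysis by the synthase, were called only between the knockdowns. ATP5PD was measured at 92.1 and 80.9 CPM in si-Ctr, 102 and 86.6 CPM in si-ZBTB11 and 78.5 and 79.7 CPM in si-SET, and ATP5IF1 at 93.2 and 98.8 CPM, at 109 and 103 CPM and at 82.9 and 100 CPM. Their direct differences were 0.24 ± 0.06 (adjusted p = 0.00637) and 0.20 ± 0.07 (adjusted p = 0.0257). Neither was called with DESeq2 or without si-ZBTB11 replicate 1, nor was that of ATP5IF1 without si-SET replicate 1. Outside the rule, TMEM242, which takes part in assembly of the ring of subunit c, fell with ATPAF1. TMEM242 was measured at 36.2 and 36.7 CPM in si-Ctr, 26.4 and 23.2 CPM in si-ZBTB11 and 36.3 and 38.0 CPM in si-SET, a log2 fold change of -0.56 ± 0.09 upon ZBTB11 knockdown (adjusted p = 5.24e-07) and of -0.59 ± 0.09 against si-SET (adjusted p = 9.95e-06). The other factors of this kind, TMEM70 and FMC1, were not called.

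Of the 18 genes that rose upon ZBTB11 knockdown, 12 have canonical transcripts under 1000 bases. The canonical transcripts of the 62 genes have a median length of 1182 bases, beside 3373 bases for all genes tested. Of the 26 with transcripts under 1000 bases, 12 were higher and 0 lower upon ZBTB11 knockdown, 46.2% and 0% (edgeR, with 0 lower at an unadjusted p under 0.05 and 0 by DESeq2), beside 21.8% and 5.79% of all 726 tested genes of that length. Of the 19 with transcripts of 2000 bases or more, 4 were higher and 3 lower, 21.1% and 15.8% beside 8.79% and 11.4%. The median log2 fold change of all genes tested was 0.06 in the shortest class and -0.01 in the longest. Length thus moves with the direction of change across all genes, and its part in the rises was not tested. TACO1 has a canonical transcript of 1446 bases and ATPAF1 of 4068 bases.

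**Figure D4:**
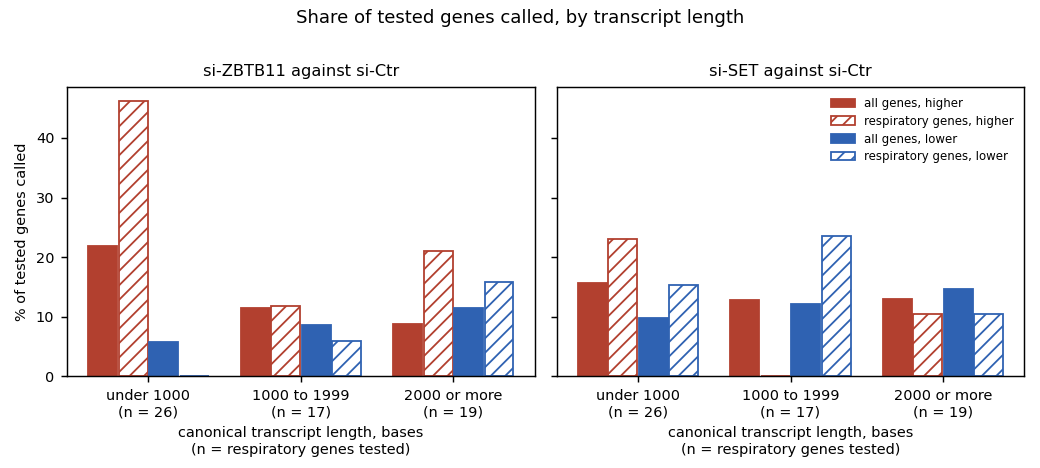
Share of tested genes called higher or lower at an adjusted p under 0.05, by length of the canonical transcript, for all genes (filled) and for the respiratory genes of complexes II to V (hatched), with the number of the latter under each class. Upon ZBTB11 knockdown the share called higher is largest in the shortest class, 46.2% of the respiratory genes and 21.8% of all genes.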

How the data were processed

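RNA of 6 libraries (3 groups of 2) was sequenced from H1299 cells. According to the study's methods, libraries were made with a NEBNext Ultra kit, reads were aligned to hg38 with HISAT2 (2.0.5) and read counts per gene were made with featureCounts (1.5.0-p3). The authors deposited these values as raw, whole-number counts by gene symbol. Whether strand was used and how reads with several matches were treated is not given in the sources used here, so that overlapping genes and near copies may share counts.

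Counts were fitted in R 4.3.3 with edgeR 4.0.16 (filterByExpr, TMM factors, quasi-likelihood test, two-sided), using the libraries of the 2 groups compared and no covariate. A gene was called at a Benjamini-Hochberg adjusted p under 0.05 over all genes tested. SE is the absolute log2 fold change divided by the square root of F. The procedure was tested on simulated data. With 2 libraries against 2 an exact permutation test of a single gene cannot go below p = 0.333, and none was run. Adjusted p-values set a difference against the spread between these libraries, which the fit estimates in part from other genes. The libraries held 16653115 to 17694522 counts, so that 3 counts correspond to 0.17 to 0.18 CPM, which covers counting error only. Replicates differed by more than sampling noise (chi-square per degree of freedom 2.34 to 2.71).

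The genes, the lists and the tests were chosen with earlier results of these data known. Values in every library are given for genes the symbol rule names singly and for up to 12 called genes per comparison with the largest change, and, of the pathway lists outside the rule, up to 5 called genes per comparison; other genes named for a shared promoter run or a short list were chosen after their values were seen. GENCODE v44 (hg38) gave coordinates, transcript lengths and overlaps for all 69 genes and 19283 of 19934 symbols. Alternatives were DESeq2 1.42.0, its size factors in edgeR, library size only, no filter beyond 1 count or a minimum of 10 counts per library, a joint fit of all 6 libraries, a replicate block, the study's criteria (unadjusted p under 0.05 and absolute log2 fold change over 1) and each library left out in turn.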

Additional observations from a re-analysis of the deposited data

How the results depend on the processing

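With DESeq2, the higher and lower counts were 8 and 4 upon ZBTB11 knockdown (18 and 4 with edgeR), 5 and 3 upon SET knockdown (8 and 10) and 9 and 3 between the knockdowns (13 and 5). By the study's criteria they were 0 and 2, 0 and 0, and 0 and 2. When each library was left out in turn, with a lone library assumed to vary like the other group, the higher count ran from 7 to 20 and the lower from 3 to 4 upon ZBTB11 knockdown, from 6 to 9 and from 4 to 6 upon SET knockdown, and from 8 to 16 and from 3 to 5 between the knockdowns. In the other settings all 6 counts lay within 1.5 times those reported. The median log2 fold changes moved by less than the median spread of a single gene between replicates in every setting run. That spread does not measure how far a median over many genes can vary. With a library left out, the medians ran from 0.037 to 0.116, from -0.036 to -0.010 and from 0.044 to 0.109. Calls kept in every setting other than the study's criteria numbered 9 of 22, 6 of 18 and 11 of 18. Over the single genes named, 497 recomputed values kept direction and call, 64 lost the call and 0 changed direction. The cause of these losses was not tested.

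Replicate numbers are shared between groups, but same-numbered libraries did not deviate together (correlation of deviations 0.0114 to 0.0258), so the samples share only a number. With a replicate block the counts were 21 higher and 4 lower, 9 and 12, and 19 and 5, with medians of 0.076, -0.019 and 0.076, and all calls of the fits without the block were kept. COX4I2, COX6A2, COX6B2, COX8C and SCO2 had at most 11 counts in a library, and differences were not detectable at this depth.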
